A study of Homo sapiens with 12 samples.

Results

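The D cyclins CCND1, CCND2 and CCND3, the kinases CDK4 and CDK6, the inhibitors CDKN2C, CDKN2D, CDKN1A and CDKN1B, and the retinoblastoma gene RB1 form the switch through which a cell leaves G1. These 10 genes were chosen by name, with earlier results of these data known. Each matched 1 row on an autosome among the 60675 Ensembl genes of the table, and 9 passed the filter on low counts and were tested. CCND2 did not. PolyA+ RNA was sequenced, with strand information kept, from the diffuse large B cell lymphoma line U-2932 (human), grown in RPMI with serum. All cells carried stable expression of Roquin2, a protein that binds certain mRNA stem-loops and speeds the decay of those mRNAs. One set of cells had the WT form and the other the Y691F form, and each was either untreated or stimulated through its B cell receptor for 12 h by F(ab')2-IgM (10 µg/ml). The 4 groups of 3 libraries were thus each form with and without IgM. The sources used here do not say how many independently made lines stood behind each Roquin2 form or how the transgene was driven, so a difference between the forms cannot be told apart from other differences between these cells.

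D cyclins are made when a cell receives growth signals. They bind CDK4 or CDK6, and the complexes phosphorylate the RB1 protein, which then lets go of the E2F factors that drive genes of S phase. CDKN2C (p18) and CDKN2D (p19) belong to the INK4 family, which binds CDK4 and CDK6 and keeps D cyclins away. CDKN1A (p21) and CDKN1B (p27) belong to the CIP/KIP family, which binds assembled cyclin-CDK complexes and inhibits CDK2 in particular. In B cells, CCND2 is known as a gene induced by the B cell receptor, CCND3 as the D cyclin of germinal center cells, and CCND1 as the gene activated by translocation in mantle cell lymphoma.

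The libraries held 16465393 to 21478790 counts, and RC3H2, the gene of Roquin2, stood at 111 ± 1.08 and 121 ± 1.80 CPM in WT without and with IgM and at 209 ± 0.880 and 206 ± 1.79 CPM in Y691F. CPM are counts scaled to library size by the trimmed mean of M values (TMM), and values after ± are SD over 3 libraries. All 10 B cell markers examined were tested, and their summed level ran from 4204 to 4286 CPM in untreated WT, 3823 to 3875 in untreated Y691F, 2520.1 to 2567 in WT with IgM and 2518 to 2577 in Y691F with IgM. Of 10 T and NK cell markers 2 were tested and 4, CD3D among them, had no read in any library. Their summed level was 8.28 to 9.17 CPM in the untreated and 20.3 to 25.1 CPM in the IgM libraries, with TRAC at 1.34 (log2 change with IgM in WT, adjusted p = 1.63e-26). Of 10 myeloid markers 1 was tested (summed level 1.17 to 2.09 CPM), and of 10 fibroblast and epithelial markers 4 were (20.9 to 27.3 CPM, most of it EPCAM). The part of these markers in the results below was not tested. In bulk RNA, fewer cells of a kind and less RNA per cell cannot be told apart, and the phase of the cell cycle was not measured.

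As sums per unit of length, the kinases, the INK4 members and the CIP/KIP members each outweighed the D cyclins in every group. Single genes did not all follow this order. In untreated WT, CDK4 was highest at 56.6 ± 0.184 RPKM (read density per length and depth, as deposited, mean ± SD of 3 libraries). CDKN2C followed at 39.2 ± 0.523, CDKN1A at 26.3 ± 0.360, CCND3 at 14.1 ± 0.603, CDKN1B at 9.58 ± 0.511 and CDK6 at 7.53 ± 0.217 RPKM. CDKN2D at 4.07 ± 0.509 and RB1 at 3.89 ± 0.212 RPKM came last of the well-expressed genes, and the ranges of this pair overlapped, whereas those of all other neighbours in this order did not. CCND1 stood at 0.0369 ± 0.0118 RPKM and CCND2 was listed at 0. In untreated Y691F the order differed in 2 places. CDKN1B (11.9 ± 0.380 RPKM) stood above CCND3 (10.8 ± 0.584), and RB1 (4.20 ± 0.139) stood above CDKN2D (3.44 ± 0.477), in both cases without overlap of the 3 libraries.

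With IgM, both forms had the same order per length. CDK4 led at 76.1 ± 2.61 RPKM in WT and 66.2 ± 0.309 in Y691F, followed by CDKN1A at 37.2 ± 1.504 and 46.4 ± 0.897, and CDKN1B at 9.53 ± 0.539 and 12.8 ± 0.512. CDKN2C had dropped to 7.19 ± 0.128 and 9.46 ± 0.408, above CDK6 at 6.08 ± 0.509 and 6.02 ± 0.0708 RPKM. RB1, at 4.49 ± 0.205 and 4.31 ± 0.241 RPKM, now stood above CCND3, at 2.70 ± 0.211 and 3.22 ± 0.0951, and CDKN2D was lowest of the 8 at 1.95 ± 0.136 and 1.64 ± 0.208. Within each form no 2 neighbours among these 8 genes overlapped.

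**Figure D1:**
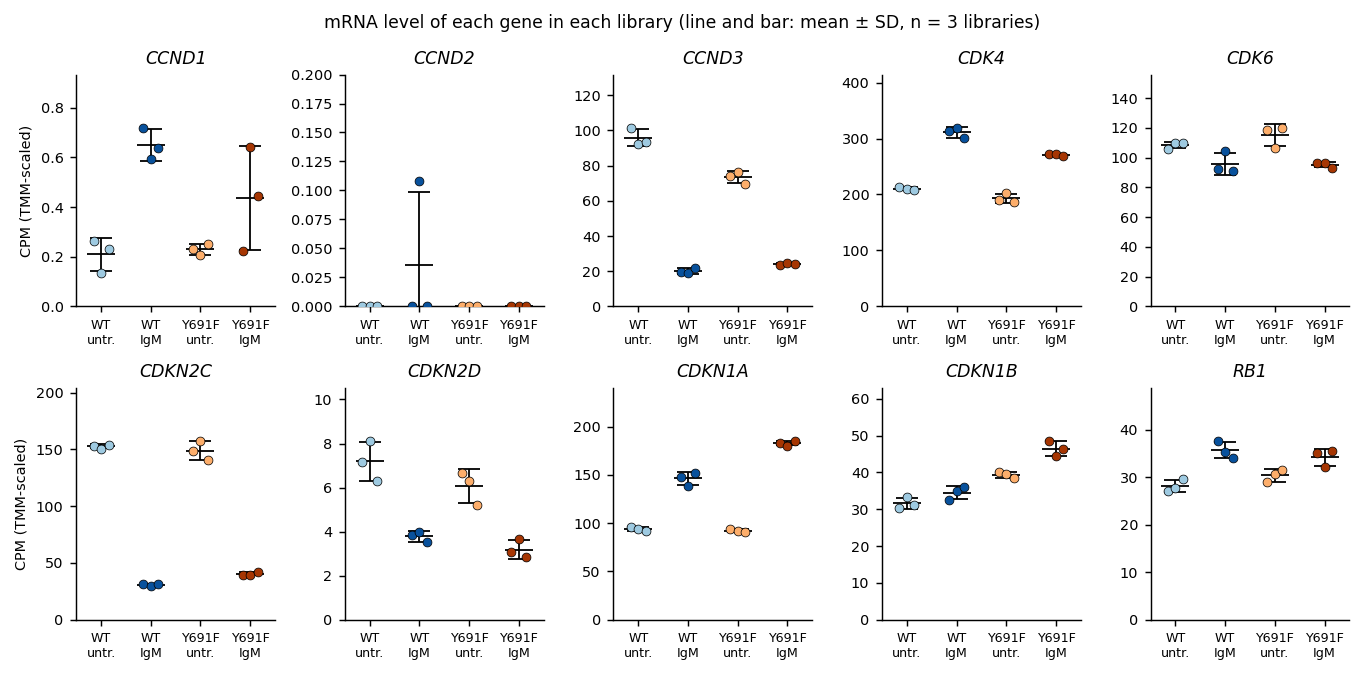
Level of each of the 10 genes in each of the 12 libraries, in TMM-scaled CPM on a linear axis from 0 (1 panel per gene, 1 point per library, line and bar for mean ± SD of 3). CCND3, CDKN2C and CDKN2D are lower with IgM in both forms, CDK4 and CDKN1A are higher, and CCND1 and CCND2 stay below 1 CPM.

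Stimulation with IgM asked how the receptor signal moved this switch in each form. In WT, CCND3, CDKN2C, CDKN2D and CDK6 fell, and CDK4, CDKN1A, RB1, CCND1 and CDKN1B rose, so that 5 members were called higher and 4 lower of 9 tested. A gene was called at a Benjamini-Hochberg adjusted p under 0.05 in edgeR's quasi-likelihood test over all 15112 tested genes, from which every adjusted p below comes unless another tool is named. In Y691F, 4 were called higher and 4 lower, CCND1 being the one not called. Calls were this common across the transcriptome too. In WT 76.9% of all tested genes were called (38.4% higher, 38.5% lower), and in Y691F 75.8% were (37.1% higher, 38.7% lower). The median change of the members was 0.12 in WT and 0.17 in Y691F on the log2 scale, beside medians over all tested genes of 0.0016 and -0.011. Libraries with and without IgM did not overlap for 8 of the 9 members in each form, against 77.7% of all tested genes in WT and 75.6% in Y691F. With library totals in place of TMM factors, the median of all genes moved by -0.13 in WT and -0.17 in Y691F, and small changes with IgM are relative to the TMM scaling.

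Among the D cyclins, CCND3 (ENSG00000112576, GRCh38 chromosome 6, 41934933 to 42050357, minus strand) carried nearly all reads. It stood at 101.4, 92.3 and 93.7 CPM in untreated WT and at 19.7, 18.8 and 22.0 CPM with IgM. In Y691F it went from 74.4, 76.3 and 69.7 CPM to 23.6, 24.8 and 24.1 CPM. Every IgM library was thus below every untreated library of either form. The fall was 4.76-fold in WT (log2 -2.25, SE 0.053, adjusted p = 9.83e-56) and 3.04-fold in Y691F (log2 -1.60, SE 0.052, adjusted p = 3.32e-45). The 2 responses differed by 0.65 (SE 0.078, adjusted p = 1.04e-10), the fall being smaller in Y691F. The forms also changed places. CCND3 was lower in Y691F without IgM (log2 -0.38, SE 0.041, adjusted p = 5.58e-13) and higher with it (log2 0.26, SE 0.067, adjusted p = 7.01e-04), with no overlap of libraries in either comparison.

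CCND1 (ENSG00000110092, chromosome 11, 69641087 to 69654474, plus strand) was close to the limit of detection, with 82 reads in all 12 libraries. It had 5, 3 and 4 reads in untreated WT and 12, 11 and 10 with IgM, and 5, 4 and 5 reads in untreated Y691F and 4, 12 and 7 with IgM. The WT libraries with IgM lay above those without, while replicate 1 of Y691F with IgM lay within the untreated range. CCND1 rose in WT (3.10-fold, log2 1.63, SE 0.47, adjusted p = 0.00115) and gave log2 0.91 in Y691F (SE 0.49, adjusted p = 0.0840), which passed the threshold without replicate 1 of Y691F with IgM (log2 1.24, adjusted p = 0.0266). The difference between the responses was not called (-0.72, interval -2.10 to 0.66, adjusted p = 0.509), and this interval is too wide to show that the responses were alike. Here and below, intervals are 95% and were taken from the SE by the normal approximation. ORAOV1, which overlaps CCND1 by 1399 bases on the other strand, had 4156 reads. The protocol keeps the strand, but the sources used here do not say whether the counting used it.

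CCND2 (ENSG00000118971, chromosome 12, 4273772 to 4305350, plus strand), the D cyclin known for induction by the B cell receptor, had no read in 11 of 12 libraries. Its 2 reads lay in replicate 2 of WT with IgM. The gene was thus not detectable at this depth in U-2932 with or without 12 h of IgM, and no fold is given. Its antisense neighbours CCND2-AS1 and CCND2-AS2 had no read in any library.

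Of the summed D cyclin RPKM, CCND3 made up 99.7 ± 0.0755% in untreated WT and 96.1 ± 0.450% with IgM, and 99.6 ± 0.0535% and 97.9 ± 0.954% in Y691F (SD, n = 3). CCND1 took 0.313, 0.173 and 0.293% in the untreated and 4.20, 3.63 and 3.36% in the IgM libraries of WT. In Y691F it took 0.370, 0.325 and 0.432% and 1.12, 3.03 and 2.16%. CCND1 thus gained in share while CCND3 remained above 95.8% of the sum in every library. For such shares and for the ratios below, 28 exact 2-sided permutation tests were made over libraries. With 3 against 3 the smallest p is 0.10 and the smallest adjusted p over the 28 was 0.117, so none of them could pass, and they are described by values and overlap.

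The kinases moved in opposite directions. CDK4 (ENSG00000135446, chromosome 12, 57747727 to 57756013, minus strand) stood at 213, 209.6 and 209 CPM in untreated WT and 313, 319 and 300.3 CPM with IgM, and at 190.3, 202 and 187 and 272, 272 and 269 CPM in Y691F. IgM libraries were above untreated ones in both forms, and Y691F libraries below WT ones in both treatments. It rose 1.48-fold in WT (log2 0.56, SE 0.031, adjusted p = 1.00e-29) and 1.40-fold in Y691F (log2 0.49, SE 0.031, adjusted p = 1.72e-25). The difference was not called (-0.076, interval -0.16 to 0.0090, adjusted p = 0.206), though it was with library totals (-0.11, adjusted p = 0.0386). CDK4 was lower in Y691F without IgM (log2 -0.12, adjusted p = 0.00103) and with it (log2 -0.20, adjusted p = 3.88e-08). Its neighbours TSPAN31 (1134 reads) and MARCH9 (6183 reads) overlap it on the other strand, beside 54175 reads on CDK4.

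CDK6 (ENSG00000105810, chromosome 7, 92604921 to 92836594, minus strand) stood at 106, 109.5 and 109.8 CPM in untreated WT and 92.1, 105 and 91.2 CPM with IgM, and at 118, 106 and 119.8 and 96.1, 96.6 and 93.2 CPM in Y691F. It fell by a small amount in WT (log2 -0.17, SE 0.041, adjusted p = 1.64e-04) and in Y691F (log2 -0.27, SE 0.041, adjusted p = 2.39e-08), with IgM and untreated libraries apart in both forms. No difference between the forms was called with IgM (log2 -0.012, interval -0.096 to 0.071, adjusted p = 0.851) or without (log2 0.084, interval 0.0065 to 0.16, adjusted p = 0.101). The untreated difference was called with all libraries under a filter of 5 CPM in 3 libraries (log2 0.11, adjusted p = 0.0429) and without replicate 2 of untreated Y691F (log2 0.14, adjusted p = 0.00771). Without that replicate a larger fall with IgM in Y691F than in WT was called too (-0.15 against -0.097 with all libraries, adjusted p = 0.0480 against 0.238). CDK4 made up 88.3 ± 0.331% of the summed RPKM of both kinases in untreated WT and 92.6 ± 0.386% with IgM, and 86.7 ± 1.20% and 91.7 ± 0.0975% in Y691F.

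Both INK4 members fell with IgM. CDKN2C (ENSG00000123080, chromosome 1, 50960745 to 50974633, plus strand) stood at 153, 151 and 154 CPM in untreated WT and 31.2, 29.9 and 31.2 CPM with IgM. In Y691F it went from 149, 157 and 141 to 39.7, 39.7 and 42.1 CPM. The untreated libraries of both forms overlapped, and with IgM all 3 of Y691F lay above all 3 of WT. Its fall was 4.97-fold in WT (log2 -2.31, SE 0.044, adjusted p = 2.14e-62) and 3.68-fold in Y691F (log2 -1.88, SE 0.042, adjusted p = 2.94e-57). The responses differed by 0.43 (SE 0.064, adjusted p = 4.18e-08). Between the forms, CDKN2C was higher in Y691F with IgM (log2 0.40, SE 0.054, adjusted p = 1.35e-09), and no difference was called without it (log2 -0.037, interval -0.10 to 0.031, adjusted p = 0.462).

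CDKN2D (ENSG00000129355, chromosome 19, 10566462 to 10569059, minus strand) was lower than CDKN2C throughout. It stood at 7.15, 8.10 and 6.31 CPM in untreated WT and 3.83, 3.995 and 3.51 CPM with IgM, and at 6.67, 6.32 and 5.19 and 3.06, 3.65 and 2.85 CPM in Y691F. Its fall was 1.91-fold in WT (log2 -0.93, SE 0.13, adjusted p = 9.12e-10) and 1.89-fold in Y691F (log2 -0.92, SE 0.14, adjusted p = 9.06e-09), with a difference of 0.014 (interval -0.38 to 0.41, adjusted p = 0.976). No difference between the forms was called with IgM (log2 -0.24, interval -0.56 to 0.072, adjusted p = 0.231) or without (log2 -0.26, interval -0.48 to -0.034, adjusted p = 0.0765). The latter was called without replicate 3 of untreated WT (-0.34, adjusted p = 0.0310) or replicate 1 of untreated Y691F (-0.33, adjusted p = 0.0445).

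The other INK4 genes were named after their values were seen. CDKN2A, whose locus gives rise to p16 and, in another frame, ARF, stood at 179 ± 5.81 and 168 ± 2.16 CPM in WT without and with IgM (log2 -0.094, adjusted p = 0.00883) and at 184 ± 8.68 and 169.7 ± 5.05 CPM in Y691F (log2 -0.11, adjusted p = 0.00162). A count per gene does not tell its products apart. CDKN2B, the gene of p15, stood at 11.7 ± 1.68 and 6.84 ± 0.665 CPM in WT and at 18.4 ± 0.493 and 15.3 ± 0.851 CPM in Y691F. It was higher in Y691F without IgM (log2 0.66, adjusted p = 5.48e-11) and with it (log2 1.15, adjusted p = 9.39e-18). With IgM, CDKN2B fell in WT (log2 -0.76, adjusted p = 1.45e-10) and in Y691F (log2 -0.27, adjusted p = 0.00115). These responses differed by 0.49 (adjusted p = 0.00186).

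Of the CIP/KIP members, CDKN1A rose in both forms, and CDKN1B was higher in Y691F than in WT. CDKN1A (ENSG00000124762, chromosome 6, 36676460 to 36687339, plus strand) stood at 96.0, 94.4 and 92.3 CPM in untreated WT and 148, 139 and 152 CPM with IgM, and at 94.4, 91.9 and 90.8 and 183, 180.4 and 185 CPM in Y691F. Untreated libraries of both forms overlapped, and all Y691F libraries with IgM lay above all WT ones. CDKN1A rose 1.55-fold in WT (log2 0.63, SE 0.036, adjusted p = 1.07e-28) and 1.98-fold in Y691F (log2 0.98, SE 0.035, adjusted p = 2.28e-42). The responses differed by 0.35 (SE 0.050, adjusted p = 1.81e-08). With IgM it was higher in Y691F (log2 0.32, SE 0.034, adjusted p = 1.51e-13), and without IgM no difference was called (log2 -0.029, interval -0.10 to 0.043, adjusted p = 0.606).

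CDKN1B (ENSG00000111276, chromosome 12, 12715058 to 12722371, plus strand) differed between the forms more than with IgM. It stood at 30.4, 33.3 and 31.2 CPM in untreated WT and 32.5, 35.0 and 36.1 CPM with IgM, and at 40.0, 39.6 and 38.5 and 48.4, 44.4 and 46.3 CPM in Y691F. Every Y691F library lay above every WT library, whatever the treatment. CDKN1B was higher in Y691F without IgM (1.24-fold, log2 0.31, SE 0.053, adjusted p = 8.54e-07) and with it (1.34-fold, log2 0.43, SE 0.053, adjusted p = 9.47e-11). With IgM it rose in Y691F (log2 0.24, SE 0.050, adjusted p = 2.16e-05), but with library totals it was not called (log2 0.066, adjusted p = 0.232). The rise in WT was at the threshold (log2 0.12, adjusted p = 0.0394), its libraries overlapped, and it was lost under 10 of 14 alternatives, with adjusted p from 0.0139 to 0.860. Those include DESeq2 size factors (0.12, adjusted p = 0.0506), library totals, which turned the sign (-0.011), and leaving out replicate 1 or 3 of untreated WT or replicate 2 or 3 of WT with IgM (0.089 to 0.12). The responses of the forms were not called different (0.11, interval -0.034 to 0.26, adjusted p = 0.291).

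RB1 (ENSG00000139687, chromosome 13, 48303751 to 48481986, plus strand), the substrate of the complexes, changed little. It stood at 27.0, 27.9 and 29.7 CPM in untreated WT and 37.6, 35.4 and 34.2 CPM with IgM, and at 28.9, 30.7 and 31.6 and 35.1, 32.2 and 35.6 CPM in Y691F. IgM libraries lay above untreated ones in both forms, while those of the forms overlapped. RB1 rose in WT (log2 0.34, SE 0.057, adjusted p = 1.19e-07) and in Y691F (log2 0.17, SE 0.056, adjusted p = 0.00456), the latter only with scaling factors (log2 0.0028, adjusted p = 0.967 with library totals). No difference between the forms was called with IgM (log2 -0.062, interval -0.17 to 0.049, adjusted p = 0.409) or without (log2 0.11, interval -0.0023 to 0.22, adjusted p = 0.143). The difference of the responses was not called (-0.17, interval -0.33 to -0.014, adjusted p = 0.112), though it was with library totals (-0.21, adjusted p = 0.0494).

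**Figure D2:**
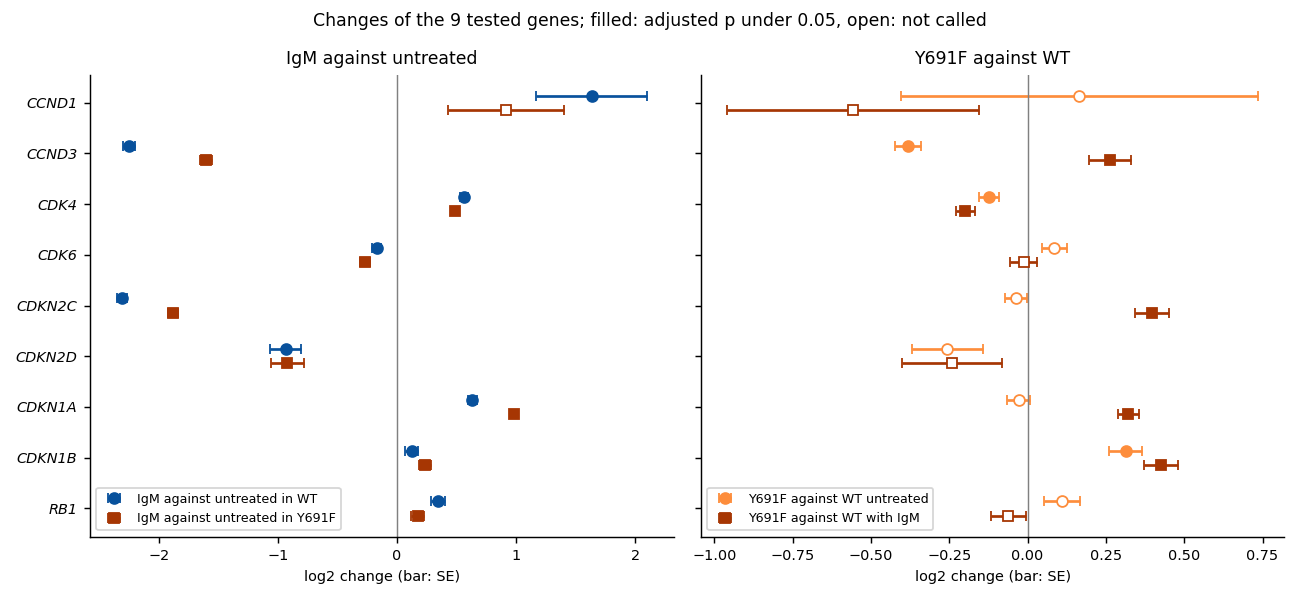
Log2 change of the 9 tested genes (rows) with IgM in each form (left) and in Y691F against WT with and without IgM (right), with the SE as bars, from edgeR's quasi-likelihood fit. Filled symbols are called at an adjusted p under 0.05. CCND3 and CDKN2C fall by 1.60 to 2.31 in both forms, and on the right CCND3 is the one gene called in both treatments with opposite signs.

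Set against each other per length, the D cyclins and the pair CDKN2C and CDKN2D were lower relative to the kinases with IgM in both forms. The summed D cyclins were 0.231, 0.212 and 0.216 of the summed CDK4 and CDK6 in the libraries of untreated WT and 0.0333, 0.0310 and 0.0384 with IgM, a ratio 6.42-fold lower. In Y691F the ratio was 0.185, 0.182 and 0.175 and 0.0439, 0.0470 and 0.0459, 3.96-fold lower with IgM. CDKN2C and CDKN2D together were 0.675 ± 0.00319 of both kinases in untreated WT and 0.111 ± 0.00398 with IgM, and 0.694 ± 0.0248 and 0.154 ± 0.00403 in Y691F. Both ratios thus fell together, and with IgM both were higher in all Y691F libraries than in all WT ones.

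For CDKN1A with CDKN1B, the ratio to the kinases was 0.557, 0.570 and 0.552 in untreated WT and 0.565, 0.532 and 0.613 with IgM, with overlap (exact permutation p = 0.800). In Y691F it was 0.648, 0.609 and 0.631 untreated and 0.825, 0.800 and 0.834 with IgM, without overlap (exact permutation p = 0.10, the smallest possible). Of the summed RPKM of the 4 inhibitors CDKN2C, CDKN2D, CDKN1A and CDKN1B, the first 2 made up 54.7 ± 0.400% in untreated WT and 16.4 ± 0.526% with IgM. The corresponding shares in Y691F were 52.4 ± 1.27% and 15.8 ± 0.390%. With CDKN2A and CDKN2B added to the sum, an alternative chosen after seeing the data, the 4 INK4 genes made up 69.3 ± 0.510% in untreated WT and 46.4 ± 0.867% with IgM, and 68.4 ± 1.01% and 42.8 ± 0.0465% in Y691F. Either way the INK4 share was lower in all IgM libraries than in all untreated ones, but its size with IgM depended on CDKN2A.

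**Figure D3:**
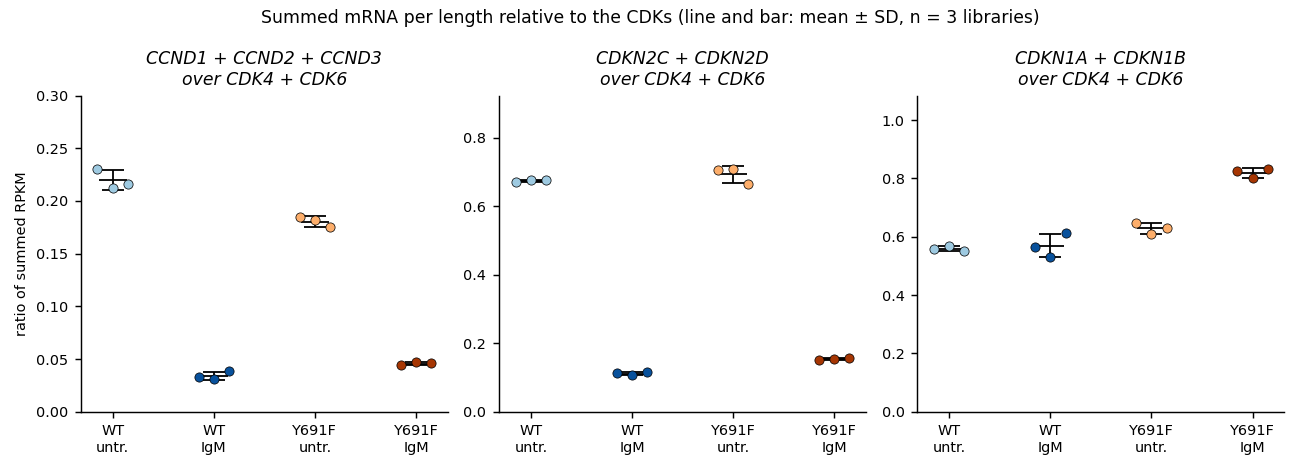
Ratio of summed RPKM of the D cyclins (left), of CDKN2C with CDKN2D (middle) and of CDKN1A with CDKN1B (right) to that of CDK4 with CDK6, in each library, on linear axes from 0, with mean ± SD of 3 libraries. The first pair of ratios drops with IgM in both forms, and the last is highest in Y691F with IgM, at 0.820 on average.

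The comparison of the forms asked how Y691F cells differed from WT cells before and during stimulation. RC3H2 mRNA was also higher in Y691F cells (209 against 111 CPM without IgM, 206 against 121 CPM with it), and its part was not tested. Without IgM, 1 member was called higher (CDKN1B) and 2 lower (CCND3, CDK4) of 9, beside 15.1% higher and 16.1% lower of all tested genes (31.2% in all). With IgM, 4 were higher (CDKN1B, CDKN2C, CDKN1A and CCND3) and 1 lower (CDK4), beside 21.9% and 20.2% of all tested genes (42.1% in all). Libraries did not overlap for 3 and 5 members, against 40.0% and 50.2% of all tested genes. The median change of the members was -0.029 without IgM and -0.012 with it, beside -0.0078 and -0.0049 over all tested genes. No change in a member between the forms reached 2-fold where it was called, the largest being that of CDKN1B with IgM at 1.34-fold.

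In the test of the difference between both IgM responses, 3 members were called, all towards Y691F (CCND3, CDKN2C and CDKN1A), beside 14.7% higher and 11.0% lower of all tested genes (25.7% in all). The median was 0.014 for the members and 0.0069 for all tested genes. For CCND3 and CDKN2C a positive difference means a smaller fall in Y691F, and for CDKN1A a larger rise. In the other direction edgeR called 0 members, with 1 (RB1, -0.17) at an unadjusted p under 0.05 and 0 called by the DESeq2 Wald test or limma-voom. With library totals edgeR called 2 in that direction, CDK4 (-0.11, adjusted p = 0.0386) and RB1 (-0.21, adjusted p = 0.0494). The calls of CCND3, CDKN2C and CDKN1A were made under each of 19 alternatives, leaving out any single library among them.

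**Figure D4:**
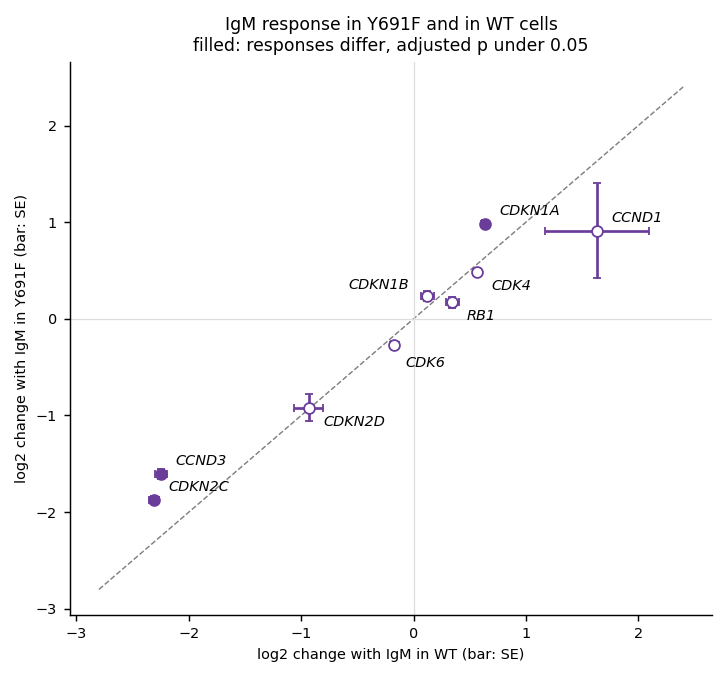
Log2 change with IgM in Y691F (vertical) against that in WT (horizontal) for the 9 tested genes, with SE bars and a dashed line of equal change. Filled points are genes whose responses differ at an adjusted p under 0.05: CCND3, CDKN2C and CDKN1A lie above the line by 0.65, 0.43 and 0.35.

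The wider pathway was read from lists of other genes. Of all tested genes, 38.4% were called higher and 38.5% lower with IgM in WT, and 37.1% and 38.7% in Y691F. Genes that E2F drives in S phase mostly fell with IgM. In WT 2 higher and 19 lower of 22 were called, with a median of -0.48, and in Y691F 1 higher and 19 lower of 22, with a median of -0.44. UHRF1, which brings DNA methylation to replicated DNA, was at -1.62 in WT and -1.41 in Y691F. TK1, thymidine kinase, was at -1.48 and -1.32. Mitosis genes counted 1 higher and 18 lower of 20 in WT (median -0.41) and 2 higher and 17 lower of 20 in Y691F (median -0.33). BIRC5, the gene of survivin, was at -1.46 and -1.29, and the mitotic transcription factor gene FOXM1 at -0.87 and -0.66. The one mitosis gene called higher in both forms was the cyclin gene CCNB1, at 0.35 and 0.24.

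Of the E2F and DP factors, 3 higher and 5 lower of 10 were called in WT (median -0.26) and 4 higher and 5 lower of 10 in Y691F (median -0.14). The activators E2F2 (-2.54 in WT, -2.07 in Y691F) and E2F1 (-1.19 and -0.85) fell. E2F3, on the same list, rose (0.36 in WT, adjusted p = 7.35e-11, and 0.45 in Y691F, adjusted p = 4.40e-14). In the list of E cyclins, CDK2 and pocket proteins, 4 higher and 9 lower of 14 were called in WT (median -0.30) and 5 higher and 9 lower of 14 in Y691F (median -0.26). That list also holds the inhibitor genes CDKN1C, CDKN2A and CDKN2B, and CDKN3. CDKN2A, CDKN2B and CDKN3 were among its genes called lower in both forms, and CDKN1C among those called higher in Y691F. CCNE2, a cyclin partner of CDK2, fell (-0.99 and -0.83), while CDC25A, the phosphatase that activates CDK2 (1.06 and 0.82), and CCNH, the cyclin of the CDK-activating kinase (1.07 and 1.01), rose. Among genes that control the turnover of G1 cyclins and inhibitors, 8 higher and 7 lower of 16 were called in WT (median -0.035) and 7 higher and 6 lower of 16 in Y691F (median 0.049). FBXO31, a ubiquitin ligase adaptor for cyclin D1, rose (1.15 and 1.04), and UBAC1, a subunit of a ligase for p27, fell (-1.52 and -0.92).

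Between the responses of the forms, the S phase list counted 10 higher and 1 lower of 22, the mitosis list 6 higher and 0 lower of 20 and the E2F and DP list 4 higher and 0 lower of 10. Of all tested genes, 14.7% were called higher and 11.0% lower in this comparison. The turnover list counted 5 higher and 0 lower of 16, and the list of E cyclins, CDK2 and pocket proteins 2 higher and 3 lower of 14. In the latter list, the calls include CDKN2B as higher (0.49) and CDKN3 as lower (-0.32). At an unadjusted p under 0.05 the mitosis list had 2 lower and the E2F and DP and turnover lists 0, with 0 by DESeq2 and limma-voom in all 3. With library totals the mitosis list had 4 higher and 2 lower and the S phase list 9 higher and 3 lower, while the E2F and DP and turnover lists still had 0 lower. The median difference was 0.088 for the S phase list and 0.058 for the mitosis list, beside 0.0069 over all tested genes. Smaller falls in Y691F were called for CHAF1A, a histone chaperone subunit (0.32), PCNA, the sliding clamp of replication (0.30), and E2F2 (0.47). USP2, a deubiquitinase of cyclin D1, fell in WT (-0.86, adjusted p = 3.50e-33) and stood at 0.061 in Y691F (adjusted p = 0.192), a difference of 0.92 (adjusted p = 2.36e-23). Without IgM, the S phase list stood at 0 higher and 9 lower of 22 in Y691F against WT, with 0 higher at an unadjusted p under 0.05 and by DESeq2 or limma-voom. With IgM it stood at 8 higher and 4 lower of 22. The shares of all tested genes were 15.1% higher and 16.1% lower without IgM, and 21.9% and 20.2% with it.

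**Figure D5:**
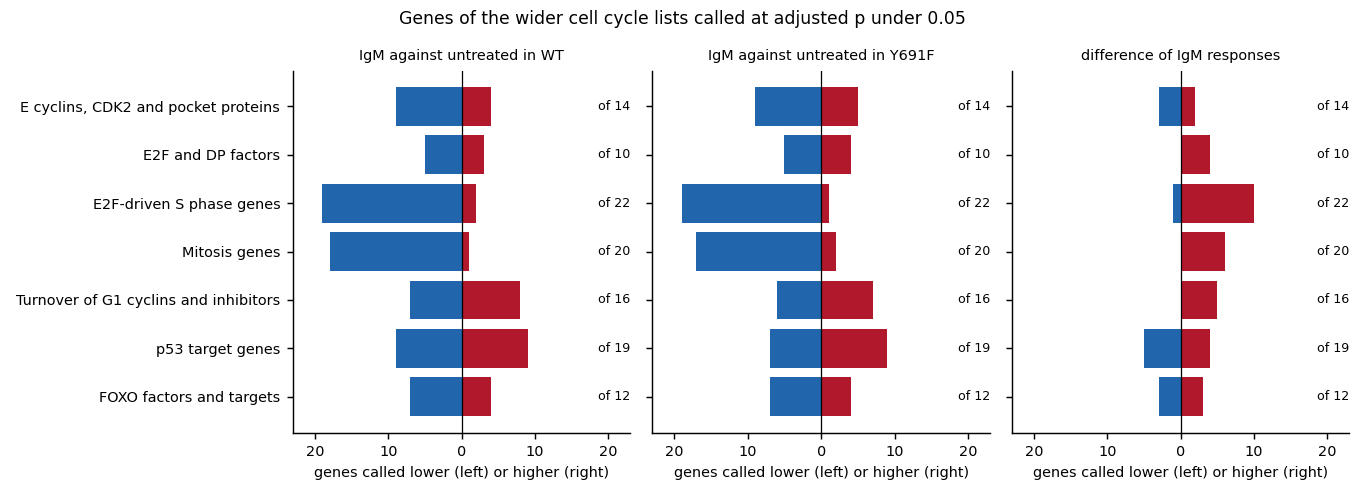
Number of genes of 7 wider lists called lower (left of 0) or higher (right of 0) with IgM in WT, with IgM in Y691F and in the difference of the responses, with the number tested at the right edge. S phase and mitosis genes are mostly lower with IgM in both forms (19 of 22 and 18 of 20 in WT, beside 38.5% of all tested genes).

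Promoter windows in RefSeq (GRCh38.p14, 250 bases before to 50 after a start) were found for 8 of the 10 genes, 13 windows in all. The window of RB1 (upstream part chr13:48476200-48476449) lies far inside the gene, whose annotated start is at 48303751. The windows printed below, of CDK4, CDKN2C and CCND3, also lie inside the annotated extents of their genes, as do those of CDKN1A and CDKN1B. The region before the outermost annotated start of RB1, CDK4, CCND3, CDKN1A or CDKN1B was not searched. All 13 windows were kept. They were searched on both strands for the E-box CACGTG, which MYC with MAX is known to bind, and for the letters GCGTGGGCG or GCGGGGGCG of EGR factors, TTTCGCGC or TTTGGCGC of E2F, TGTTTAC of FOXO, and CCAAT, and for NF-kB as GGG, any 2 bases and TTTCC. The CDK4 window is shown because it holds 3 E-boxes, and those of CDKN2C and CCND3 because these genes fell most and have an EGR match each, or, in the second CDKN2C window, an E-box. The bases before the start are given 5′ to 3′ on the gene's strand, with matches that lie wholly before the start in capitals:
CDK4 (chr12:57752311-57752560, minus strand): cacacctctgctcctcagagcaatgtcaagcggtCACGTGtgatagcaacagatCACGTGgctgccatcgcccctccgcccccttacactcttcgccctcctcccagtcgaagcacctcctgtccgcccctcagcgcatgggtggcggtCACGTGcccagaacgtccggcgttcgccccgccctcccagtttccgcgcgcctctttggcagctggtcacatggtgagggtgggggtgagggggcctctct
CDKN2C (chr1:50968456-50968705, plus strand): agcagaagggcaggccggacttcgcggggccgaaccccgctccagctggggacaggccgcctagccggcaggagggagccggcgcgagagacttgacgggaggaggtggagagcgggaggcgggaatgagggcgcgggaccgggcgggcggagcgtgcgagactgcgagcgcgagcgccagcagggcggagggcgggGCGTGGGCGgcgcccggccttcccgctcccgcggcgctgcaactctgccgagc
CDKN2C (chr1:50969995-50970244, plus strand): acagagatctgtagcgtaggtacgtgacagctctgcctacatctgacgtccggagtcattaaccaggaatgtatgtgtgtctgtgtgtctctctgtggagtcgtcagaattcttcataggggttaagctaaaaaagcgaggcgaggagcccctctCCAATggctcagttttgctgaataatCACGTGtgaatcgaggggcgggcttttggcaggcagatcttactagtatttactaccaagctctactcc
CCND3 (chr6:42048689-42048938, minus strand): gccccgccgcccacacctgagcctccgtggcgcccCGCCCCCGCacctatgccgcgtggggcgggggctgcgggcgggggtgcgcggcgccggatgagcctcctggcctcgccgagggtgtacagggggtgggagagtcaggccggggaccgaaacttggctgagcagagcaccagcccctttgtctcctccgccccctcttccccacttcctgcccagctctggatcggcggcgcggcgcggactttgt

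The E-boxes of CDK4 began 216, 196 and 101 bases before the start, and the second CDKN2C window held 1, at 69 bases before the start, beside a CCAAT. A further CDKN2C window, not shown, also held 1, and its upstream part (chr1:50960495-50960744) ends just before the annotated start of the gene. An E-box was present in 4 of the 13 windows, of 3 genes, against 7.26% of all 35116 windows, and an EGR match in 2 windows, of 2 genes, against 5.77%. The EGR letters are nearly all G or C, and the windows that matched had 71.3% (CDKN2C) and 72.3% (CCND3) of these bases. The median over all windows was 58.7%. CCAAT matched in 5 windows (34.6% of all), FOXO in 1 (3.42%), and E2F and NF-kB in 0 (1.15% and 1.91%). The FOXO match lies in the CCND3 window shown, on the reverse strand, where it begins 2 bases before the start and runs past it, so it is not in capitals. Such matches describe letters and not binding. MYC itself, whose product binds E-boxes, went from 12.1 ± 0.521 to 19.0 ± 1.01 CPM with IgM in WT (log2 0.66, adjusted p = 3.56e-12) and from 19.0 ± 1.31 to 15.2 ± 1.11 CPM in Y691F (log2 -0.31, adjusted p = 1.05e-04). MYC thus rose in WT and fell in Y691F (difference -0.97, adjusted p = 3.99e-12). CDK4 rose in both, and a part of MYC in the change of CDK4 was not tested.

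The hairpin letters that Roquin proteins are known to bind, TTCNNNGAA with a pyrimidine, a purine and a pyrimidine in the loop, were searched in the longest annotated 3′ UTR of each gene (GENCODE 29). None of the 10 members held a match, as against 5.88% of 19113 genes. The letters TATTTAT of AU-rich elements occurred 3 times in CDK6 (3′ UTR of 10219 bases), 2 times each in CDKN1B and RB1, and 1 time each in CCND1, CCND2 and CDKN2D. They were not found in CCND3, CDK4, CDKN2C or CDKN1A, and occur in 30.9% of all genes. Other shapes of hairpin, and 3′ ends that the annotation does not hold, were not searched.

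For the 3 members with the largest difference between responses, the genes most alike in pattern were sought among up to 9237 protein-coding genes of at least 5 CPM. Likeness was the Euclidean distance between group means of log2 (CPM + 0.5), centred over the 4 groups. The profile of CCND3 was 1.14, -1.08, 0.76 and -0.82 in WT without and with IgM and then Y691F without and with IgM. Nearest to it were MYBL1, a transcription factor gene of the MYB family (distance 0.0226, profile 1.15, -1.10, 0.76 and -0.81) and FLOT2 (0.115). CDKN2C, at 1.06, -1.23, 1.02 and -0.84, had PTPN18 (0.0424), OSBPL10 (0.0825) and AMPD3 (0.0938) as nearest genes. CCND1 was among the 3 by size, though its difference was not called, and its profile is flattened by the 0.5 added at its low level. GPX4 (0.0102), C3orf38 (0.0259) and INO80D (0.0262) were nearest to it. These distances rest on 4 group means and carry no test.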

How the data were processed

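Counts per gene and RPKM values were deposited by the authors for 12 libraries in 1 table, per the file headers. STAR 2.5.0b, DESeq2 and GRCh38 are named in the submitters' processing notes. No source used here gives the read counter or the gene lengths behind RPKM. The deposited RPKM values were used only to compare genes with each other. Counts were tested with edgeR 4.0.16 (R 4.3.3): filterByExpr kept 15112 genes, TMM factors scaled them, and a robust quasi-likelihood fit had 1 coefficient per group and no covariate over all 12 libraries. Approximate SE are the log2 change over the square root of F. Benjamini-Hochberg adjustment ran over all tested genes. On simulated data the procedure was checked before use. Libraries of a group are described as independent biological replicates, and p-values measure the spread between them (biological coefficient of variation 2.51%). The number of independently made lines per Roquin2 form is not given, so the p-values need not cover the spread between such lines. Library totals give a precision limited by counting error for CCND1, CCND2 and CDKN2D. The members and lists were chosen with earlier results of these data known. Named were all members, MYC, up to 3 genes per list by adjusted p, and the 3 genes nearest in pattern to the members with the largest differences. Some genes that this rule picks are not reported here. CDKN2A, CDKN2B and CCNB1 were added after their values were seen.

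Alternatives were DESeq2 1.42.0 size factors and Wald test, limma-voom (3.58.1), library totals, no filter, a filter of 5 CPM in 3 libraries, the replicate number as a block, only the groups compared, and leaving out each library. The columns of all 12 samples were matched by genotype, treatment and number.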

Additional observations from a re-analysis of the deposited data

Results flagged for a closer look

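The response to IgM differed between Y691F and WT cells in the test of the difference itself (edgeR's quasi-likelihood interaction) for 3 of the 9 tested members. For CCND3 the difference was 0.65 on the log2 scale (SE 0.078, adjusted p = 1.04e-10), between changes of -1.60 in Y691F and -2.25 in WT. For CDKN2C it was 0.43 (SE 0.064, adjusted p = 4.18e-08), between -1.88 and -2.31. For CDKN1A it was 0.35 (SE 0.050, adjusted p = 1.81e-08), between 0.98 and 0.63. Such a difference was called for 25.7% of all tested genes.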

How the results depend on the processing

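Of 28 called member changes, 25 kept their direction and call under every alternative run, and the other 3 were CDKN1B with IgM in both forms and RB1 with IgM in Y691F. Member changes with a turned sign were -0.011 for CDKN1B with IgM in WT and -0.022 for the difference of responses of CDKN2D, both with library totals. Without 1 library, signs turned for values that were not called: CDK6 in Y691F against WT with IgM (-0.038 to 0.068), CCND1 (-0.11 to 0.38) and CDKN2C (-0.077 to 0.0015) in untreated Y691F against WT, and CDKN2D in the difference of responses (-0.092 to 0.093). Members called higher numbered 2 in untreated Y691F with the 5 CPM filter (CDK6 added, 1 before; 1 to 2 without 1 library), 3 with IgM in WT with that filter (5 before), which leaves CCND1 out, and 2 with IgM in Y691F with library totals (4 before). Members called lower in the difference of responses numbered 2 with library totals (CDK4 and RB1) and 0 to 1 without 1 library, against 0. Apart from what construction shows, the cause was not tested. All counts of genes called over the whole table stayed within 1.5 times.

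With the replicate number as a block, the members called were 5 higher and 4 lower with IgM in WT, as without it, and no call of a member changed. Of 18 pairs of libraries with the same number in different groups, 1 had a correlation of deviations over 0.1 (range -0.077 to 0.13), and 4 of 12 libraries were closest to their own number. No pairing by number was thus seen, though with 3 libraries per group a weak one may not show. Depth limits CCND1 and CCND2, with 82 and 2 reads in all.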

Other observations

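Known p53 targets other than CDKN1A were called in both directions with IgM, as were tested genes at large. They counted 9 higher and 9 lower of 19 in WT (median -0.025) and 9 higher and 7 lower of 19 in Y691F (median 0.073). Of all tested genes, 38.4% were higher and 38.5% lower in WT, and 37.1% and 38.7% in Y691F. Between the responses the p53 list counted 4 higher and 5 lower of 19 and the FOXO list below 3 higher and 3 lower of 12. The shares of all tested genes there were 14.7% higher and 11.0% lower. BTG2, an antiproliferative gene, rose (1.67 in WT, 1.08 in Y691F), while RRM2B, a ribonucleotide reductase subunit, fell (-1.73 and -1.63). DDB2, a DNA damage sensor, fell by less in Y691F (-0.47) than in WT (-1.34, difference 0.87, adjusted p = 1.51e-19). FOXO factors and their targets, a list on which CDKN1B could also stand, counted 4 higher and 7 lower of 12 in WT and 4 higher and 7 lower of 12 in Y691F. IRS2, an insulin receptor substrate, rose (2.47 and 2.14). BCL6, the germinal center repressor, fell (-2.14 in WT and -1.32 in Y691F, difference 0.82, adjusted p = 3.67e-28).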
